A study of Homo sapiens with 6 samples.

Results

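The genes described here encode the machinery that carries proteins into mitochondria. They were taken by name: all rows named TOMM or TIMM with a number, plus DNLZ, PAM16, GRPEL1, SAMM50, CHCHD4, GFER, PMPCA and PMPCB, whose mean FPKM across the 6 samples reached 1. FPKM is the number of sequenced fragments of a gene, scaled to the length of the gene and to the total of the sample. Of 33 rows with such names, 30 passed, among 13945 genes of that level and 61204 rows in all. TOMM20L, at a mean of 1.05 FPKM, lay just inside this limit, and PAM16, at 0.350 FPKM, was the nearest below it.

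RKO, a human colorectal cancer cell line, was transfected with siRNA against ANP32B (siANP32B, 3 samples, labelled ANP32B knockdown) or with a negative control siRNA (siCtrl, 3 samples, labelled ANP32B wild type), and RNA was sequenced to find genes that depend on ANP32B. All samples came from this 1 cell line and both groups received siRNA. Which siANP32B sequence these cells received is not stated. Separate cultures are not stated either, and the p-values then reflect only a sample-to-sample spread that may be technical.

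Nearly all mitochondrial proteins are made in the cytosol and must be imported. They enter through the TOM complex of the outer membrane, where TOM20, TOM22 and TOM70 serve as receptors and TOM40 forms the channel. From there, proteins with a cleavable presequence pass through TIM23 and are pulled into the matrix by the import motor, where the processing peptidase removes the presequence. Carrier proteins are escorted by the small TIM chaperones to TIM22, beta-barrel proteins go to the SAM complex, and small cysteine-rich proteins of the intermembrane space are oxidised and trapped by the MIA pathway.

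ANP32B itself was at 72.5, 53.9 and 75.3 FPKM in siANP32B, against 429, 466 and 452 FPKM in siCtrl. Its mean in siANP32B was 15% of that in siCtrl. The depth behind the FPKM was 14577044 to 16393123 fragments in siANP32B and 14304093 to 18987041 fragments in siCtrl. Of 7 markers of colon epithelium, 4 were above 1 FPKM, while KRT19 was listed at 0 and CDH1 and VIL1 were below 0.1 FPKM in every sample. The 7 markers summed to 81.3 to 85.2 FPKM in siANP32B and 77.8 to 85.9 FPKM in siCtrl. Markers of leukocytes summed to at most 1.17 FPKM in siANP32B and 0.38 FPKM in siCtrl. Those of endothelial cells summed to at most 0.47 FPKM in siANP32B and 1.02 FPKM in siCtrl. Markers of fibroblasts summed to 1.12 to 2.02 FPKM in siANP32B and 2.82 to 4.16 FPKM in siCtrl. COL1A1 alone made up this last sum, as COL3A1 and DCN were at 0 in every sample.

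The 30 genes of protein import taken by name were more often higher than lower after ANP32B knockdown. By limma on log2(FPKM + 1), at a Benjamini-Hochberg adjusted p under 0.05 over all genes, 12 of the 30 genes were higher, against 14.6% of all tested genes. Of the 30, 0 were lower, against 24.6% of all tested genes. By limma-voom 0 of the 30 were lower as well, against 3833 of all 13945 tested genes. At p under 0.05 without adjustment in limma, 17 of the 30 were higher and 0 lower. The share over all tested genes was not counted at this threshold, so these counts cannot be weighed. The median log2 fold change of the 30 genes was 0.19, beside -0.06 over all tested genes. In these bulk samples, a different level per cell and a different share of cells cannot be told apart. In 16 of the 30 genes every siANP32B sample lay above every siCtrl sample, which was so in 19.3% of all tested genes. The reverse, with siANP32B wholly below siCtrl, was found in 0 of the 30, against 31.8% of all tested genes. All 12 higher genes had a mean between 10 and 250 FPKM, as did 26 of the 30. In that range 19.6% of all tested genes were higher and 31.6% lower, with a median log2 fold change of -0.06. The 12 were spread over TOM (3 of 8 tested genes), small TIM chaperones (4 of 5) and TIM23 (2 of 6). The MIA pathway, the import motor and the processing peptidase each gave 1 of 2. In TIM22 0 of 3 tested genes were higher and in SAM 0 of 1, against 14.6% of all tested genes. These numbers are too small to set TIM22 or SAM apart.

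**Figure D1:**
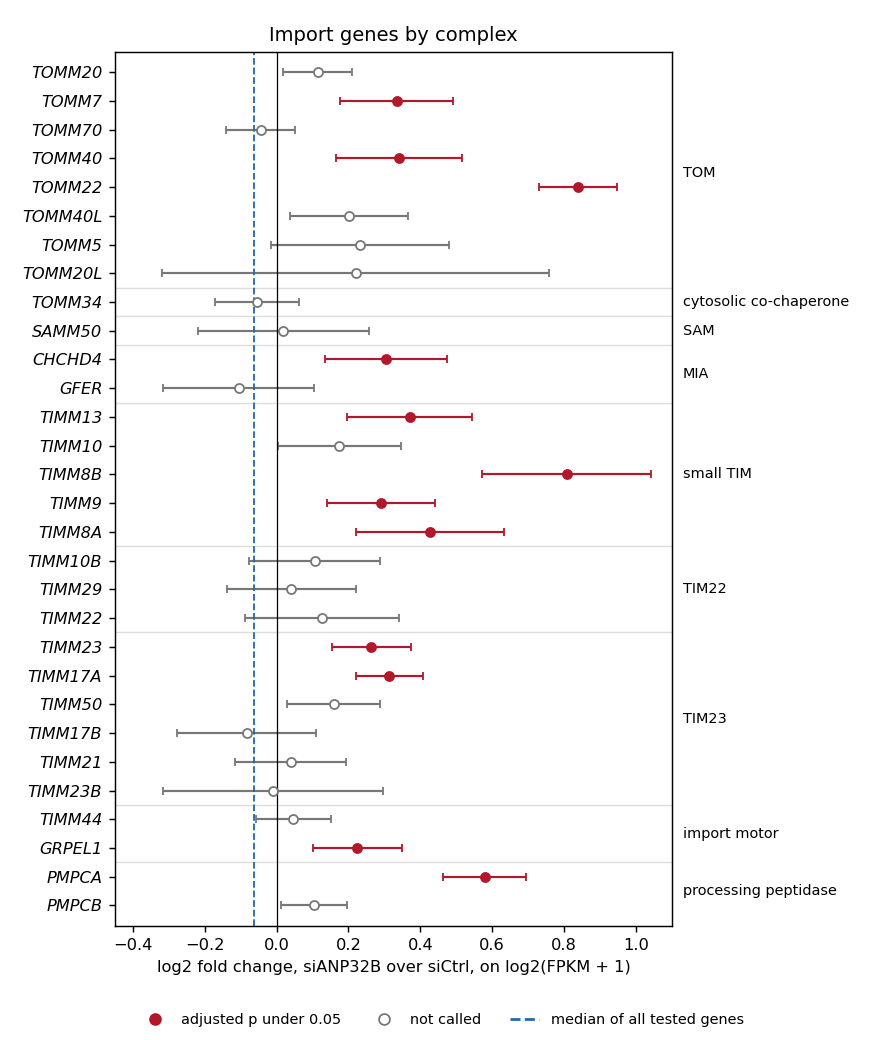
Log2 fold change (siANP32B over siCtrl, on the log2(FPKM + 1) scale) of the 30 import genes, grouped by complex, with bars for the 95% interval from limma. Filled red points are the 12 genes with an adjusted p under 0.05, open points the other 18, and the dashed line marks the median of all tested genes at -0.06; TOMM22, TIMM8B and PMPCA lie farthest to the right.

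TOMM22 had the largest rise among the import genes. It encodes the central receptor of the TOM complex, which also holds the complex together, and lies on the forward strand of chromosome 22 of GRCh38 from 38681948 to 38685421. TOMM22 was at 68.2, 66.3 and 64.4 FPKM in siANP32B, against 36.2, 37.8 and 35.9 FPKM in siCtrl. The lowest siANP32B sample was thus far above the highest siCtrl sample, and the means of 66.3 ± 1.87 and 36.6 ± 1.04 FPKM (mean ± S.D., n = 3 each) differed 1.81-fold. The log2 fold change of TOMM22, 0.84 (standard error 0.05, adjusted p = 5.35e-06), had the 20th smallest p among the 2031 higher genes and was the 102nd largest.

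The other receptors differed from TOMM22. TOMM20, the presequence receptor with the highest mean level per length over the 6 samples among the import genes, was at 246, 231 and 231 FPKM in siANP32B and 214, 227 and 213 FPKM in siCtrl. Its groups did not overlap, but the log2 fold change of 0.11 (95% interval 0.02 to 0.21) was not called (adjusted p = 0.0614). TOMM70, the receptor for carrier precursors, was at 77.5 to 82.2 FPKM in siANP32B and 81.5 to 84.1 FPKM in siCtrl, with a log2 fold change of -0.04 (95% interval -0.14 to 0.05). Within each sample, the ratio of TOMM22 to TOMM70 was 0.829, 0.824 and 0.831 in siANP32B, against 0.430, 0.462 and 0.440 in siCtrl. The mean log2 ratio differed by 0.90 between the groups. For TOMM22 to TOMM20 it differed by 0.74.

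TOMM40, the channel of the outer membrane, rose to 91.0, 76.7 and 97.6 FPKM in siANP32B, against 69.3, 69.0 and 69.6 FPKM in siCtrl. The siANP32B samples were widely spread here and the siCtrl samples nearly equal. TOMM40 was called (log2 fold change 0.34, standard error 0.08, adjusted p = 0.00768), but not against siCtrl replicate 1 alone (log2 fold change 0.34, adjusted p = 0.102). Its paralog TOMM40L, whose protein is a second channel form, was at 15.8 to 17.2 FPKM in siANP32B and 13.6 to 15 FPKM in siCtrl without overlap. With a log2 fold change of 0.20 (adjusted p = 0.0530) it was not called.

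Of the small TOM subunits, which stabilise the channel, TOMM7 was called. TOMM7 was at 141, 161 and 154 FPKM in siANP32B, against 108, 127 and 126 FPKM in siCtrl (log2 fold change 0.33, standard error 0.07, adjusted p = 0.00478). TOMM5 was at 7.38 to 8.22 FPKM in siANP32B and 5.82 to 7.50 FPKM in siCtrl, and its groups overlapped. In the longest coding transcript of TOMM5, 83.1% of the 50-base words also occur in transcripts of other genes, so its level is uncertain. TOMM6 was listed at 0 in all 6 samples. All 637 exon bases of TOMM6 are also exon of AL365205.1 on the same strand, and that gene had at most 0.112 FPKM in any sample; whether this overlap set the value of TOMM6 was not tested.

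TOMM20L, a relative of TOMM20, rested on 8 to 11 fragments in siANP32B, as recovered from the steps of the FPKM values, and 4 to 12 in siCtrl, too few to show a difference of the sizes seen here. TOMM34, a cytosolic co-chaperone that shares only the name with the channel, was at 157 to 178 FPKM in siANP32B and 170 to 182 FPKM in siCtrl, with a log2 fold change of -0.06 (95% interval -0.17 to 0.06).

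**Figure D2:**
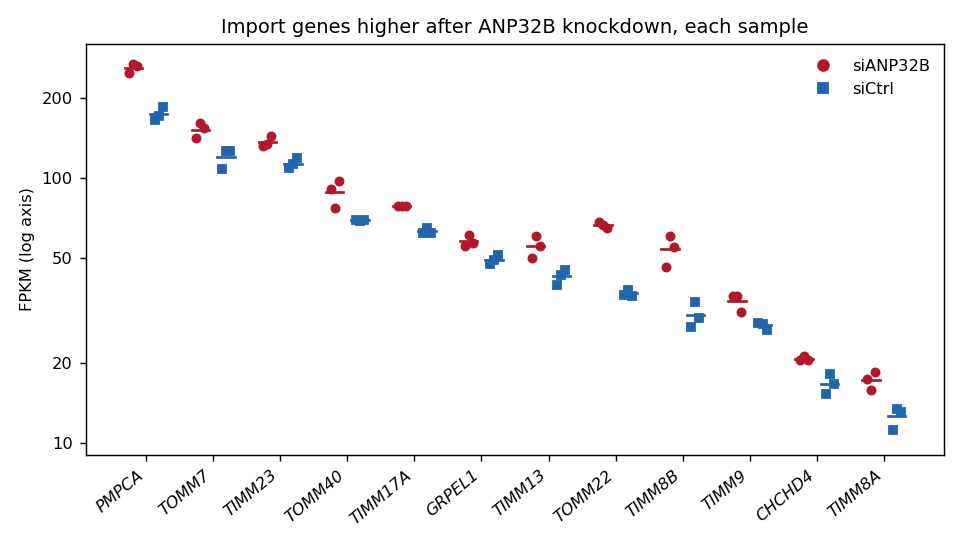
FPKM on a log axis of the 12 import genes that were higher after ANP32B knockdown, ordered by their mean in siCtrl; circles are siANP32B samples, squares siCtrl samples and lines the group means. In each of the 12 genes all siANP32B samples lie above all siCtrl samples, with the widest gap at TOMM22.

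The small TIM chaperones carry hydrophobic precursors across the intermembrane space, as rings of TIMM9 with TIMM10 and of TIMM8 with TIMM13. Of these 5 genes, 4 were higher, against 14.6% of all tested genes and 19.6% of those with a mean of 10 to 250 FPKM. The summed level of the 5 genes was 202 to 222 FPKM in siANP32B against 146 to 167 FPKM in siCtrl. TIMM8B had the largest rise of the group. It was at 46.2, 60.3 and 55.0 FPKM in siANP32B, against 27.2, 33.9 and 29.7 FPKM in siCtrl (log2 fold change 0.81, standard error 0.10, adjusted p = 3.59e-04), on 659 to 834 recovered fragments in siANP32B and 392 to 450 in siCtrl. Its locus is on the reverse strand of chromosome 11 from 112084800 to 112086798, and 30.1% of its exon bases overlap NKAPD1 on the opposite strand. NKAPD1 was not called (log2 fold change 0.15, adjusted p = 0.105), and shared reads were not tested. Exons of other genes cover 30.5% of the exon bases of TIMM9 and 28.9% of those of TIMM13. None of these genes was called, but AL139021.1, which overlaps TIMM9, was below the level tested at a mean of 0.427 FPKM.

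TIMM8A, the X-linked paralog whose loss causes deafness-dystonia syndrome, was at 17.4, 15.8 and 18.4 FPKM in siANP32B, against 11.2, 13.4 and 13.1 FPKM in siCtrl (log2 fold change 0.43, adjusted p = 0.00552). TIMM13, the ring partner of TIMM8, was at 49.9, 60.4 and 55.4 FPKM in siANP32B, against 39.4, 42.9 and 45.1 FPKM in siCtrl (log2 fold change 0.37, adjusted p = 0.00462). The 3 genes of this ring thus rose together without overlap between groups. The log2 ratio of TIMM8B to TIMM13 was nonetheless 0.45 higher in siANP32B than in siCtrl, without overlap, whereas that of TIMM8A to TIMM13 overlapped.

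TIMM9 was at 35.8, 35.7 and 31.3 FPKM in siANP32B, against 28.4, 28.2 and 26.7 FPKM in siCtrl (log2 fold change 0.29, adjusted p = 0.00802; adjusted p = 0.121 with siCtrl replicate 1 as the only control). TIMM10, its partner, was at 47.6 to 52.2 FPKM in siANP32B and 39.6 to 48.7 FPKM in siCtrl, and was not called (log2 fold change 0.18, 95% interval 0.01 to 0.35). The log2 ratio of TIMM9 to TIMM10 differed by 0.12 and overlapped between groups, so no difference within this ring was detectable.

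Of the 3 tested genes of TIM22, the receiving end of this route, 0 were called. Among all tested genes 14.6% were higher and 24.6% lower. The TIM22 genes TIMM22, the carrier channel, TIMM10B, which docks the chaperones, and TIMM29 had log2 fold changes of 0.13, 0.11 and 0.04, and all overlapped between groups. Their summed level was 58.6 to 59.9 FPKM in siANP32B and 51.4 to 59.5 FPKM in siCtrl. SAMM50, the core of the beta-barrel insertase, was at 11.2 to 14.5 FPKM in siANP32B and 11.8 to 13.9 FPKM in siCtrl (log2 fold change 0.02, 95% interval -0.22 to 0.26).

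In the MIA pathway, CHCHD4 and GFER work as a relay: CHCHD4 oxidises incoming proteins and GFER reoxidises CHCHD4. CHCHD4 rose to 20.6, 21.3 and 20.6 FPKM in siANP32B, against 15.2, 18.1 and 16.7 FPKM in siCtrl (log2 fold change 0.30, standard error 0.08, adjusted p = 0.0112). GFER was at 11.9 to 14.2 FPKM in siANP32B and 13.2 to 15.6 FPKM in siCtrl, with a log2 fold change of -0.11 (95% interval -0.32 to 0.11). The log2 ratio of CHCHD4 to GFER was 0.43 higher in siANP32B, without overlap.

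TIM23 is the presequence translocase of the inner membrane, with TIMM23 and TIMM17 as its membrane core. TIMM23 was at 132, 134 and 143 FPKM in siANP32B, against 109, 113 and 118 FPKM in siCtrl (log2 fold change 0.26, standard error 0.05, adjusted p = 0.00255). TIMM17A was at 78.3, 78.6 and 78.5 FPKM in siANP32B, against 62.1, 64.8 and 62.0 FPKM in siCtrl (log2 fold change 0.31, standard error 0.04, adjusted p = 4.12e-04). The 3 siANP32B samples were nearly equal for TIMM17A, and every one was above siCtrl.

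TIMM17B, which encodes the alternative TIMM17 form, was at 23.7 to 28.5 FPKM in siANP32B and 25.4 to 30.2 FPKM in siCtrl and was not called. The ratio of TIMM17A to TIMM17B was 2.96, 3.32 and 2.76 in siANP32B, against 2.24, 2.14 and 2.44 in siCtrl. The lowest siANP32B ratio was above the highest siCtrl ratio, and the mean log2 ratio differed by 0.40. TIMM50, the receptor of the complex, had a log2 fold change of 0.16 (adjusted p = 0.0524) with groups that did not overlap, and TIMM21, which links TIM23 to TOM, one of 0.04 with overlap.

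TIMM23B, a near-copy of TIMM23, was at 5.01 to 5.74 FPKM in siANP32B and 4.71 to 6.70 FPKM in siCtrl (log2 fold change -0.01, 95% interval -0.32 to 0.30). Of the 50-base words of the longest coding TIMM23 transcript, 17.0% occur in TIMM23B, so part of the reads could belong to either. The log2 ratio of TIMM23 to TIMM23B overlapped between the groups.

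The import motor pulls precursors into the matrix with mitochondrial HSP70. GRPEL1, its nucleotide exchange factor, was at 55.3, 60.8 and 56.7 FPKM in siANP32B, against 47.3, 48.9 and 51.2 FPKM in siCtrl (log2 fold change 0.22, standard error 0.05, adjusted p = 0.0104). TIMM44, which tethers HSP70 to the channel, was at 67.1 to 72.7 FPKM in siANP32B and 66.2 to 68.9 FPKM in siCtrl (log2 fold change 0.05, 95% interval -0.06 to 0.15). PAM16 and DNLZ, the motor's J-like subunit and the escort of HSP70, were below the level tested. PAM16 had 3 to 5 recovered fragments in siANP32B and 1 to 4 in siCtrl, and 58.5% of its words lie in the readthrough gene CORO7-PAM16, which was listed at 0. DNLZ had 11 to 26 fragments in siANP32B and 10 to 14 in siCtrl, and 26.9% of its exon bases overlap other genes. Neither was called when no filter was applied (adjusted p = 0.437 for PAM16 and 0.331 for DNLZ).

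The processing peptidase of the matrix is a pair of PMPCA, which binds the presequence, and PMPCB, which cuts it. PMPCA, on the forward strand of chromosome 9 from 136410570 to 136423761, was at 248, 269 and 265 FPKM in siANP32B, against 166, 172 and 185 FPKM in siCtrl. The means of 261 ± 11.1 and 174 ± 9.79 FPKM (mean ± S.D., n = 3 each) differed 1.50-fold (log2 fold change 0.58, standard error 0.05, adjusted p = 4.18e-05). PMPCB was at 85.4, 83.8 and 83.5 FPKM in siANP32B and 80.3, 77.6 and 77.0 FPKM in siCtrl. Its groups did not overlap, but the log2 fold change of 0.10 (95% interval 0.01 to 0.20) was not called (adjusted p = 0.0700). Exons of DNAJC2 on the opposite strand cover 13% of the exon bases of PMPCB, and DNAJC2 was itself higher (log2 fold change 0.23), so the 2 genes may share reads. The log2 ratio of PMPCA to PMPCB was 0.48 higher in siANP32B than in siCtrl, without overlap.

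Some import genes share a start region with a gene on the opposite strand. TIMM8B starts head to head with SDHD, a subunit of respiratory complex II, which was at 22.8 to 28.7 FPKM in siANP32B and 22.4 to 26.1 FPKM in siCtrl. PMPCA starts head to head with ENTR1, which was at 148 to 165 FPKM in siANP32B and 151 to 167 FPKM in siCtrl. Neither neighbour was called, while both import genes rose. CHCHD4 faces TMEM43, a nuclear envelope protein gene whose annotated start lies 70 bases away. TMEM43 fell to 21.3, 18.5 and 18.8 FPKM in siANP32B, against 23.7, 25.8 and 27.7 FPKM in siCtrl (log2 fold change -0.38, adjusted p = 0.00505; adjusted p = 0.134 with siCtrl replicate 1 as the only control).

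TIMM10B faces ARFIP2, which fell to 36.9, 37.0 and 39.7 FPKM in siANP32B, against 46.4, 48.3 and 47.7 FPKM in siCtrl. TIMM29 faces YIPF2, which was called higher (log2 fold change 0.19, adjusted p = 0.0469). This call was lost with the replicate number as a block (adjusted p = 0.0781), without a filter (0.0949), by limma-voom (0.0942), against siCtrl replicate 1 alone (0.422) and when FPKM was rescaled to the same sum in every sample (0.103). It was also lost without siCtrl replicate 2 (adjusted p = 0.113), siCtrl replicate 3 (0.128), siANP32B replicate 2 (0.142) or siANP32B replicate 3 (0.127). The log2 ratio of the import gene to its neighbour was higher in siANP32B by 0.72 for CHCHD4, 0.76 for TIMM8B, 0.64 for PMPCA and 0.44 for TIMM10B, and lower by a difference of -0.15 for TIMM29, without overlap in all 5. Across the 15 ratios computed, all chosen after the values were seen, the exact two-sided permutation test gave p = 0.10 at best, the smallest that 3 samples against 3 allow (0.136 after Benjamini-Hochberg adjustment).

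**Figure D3:**
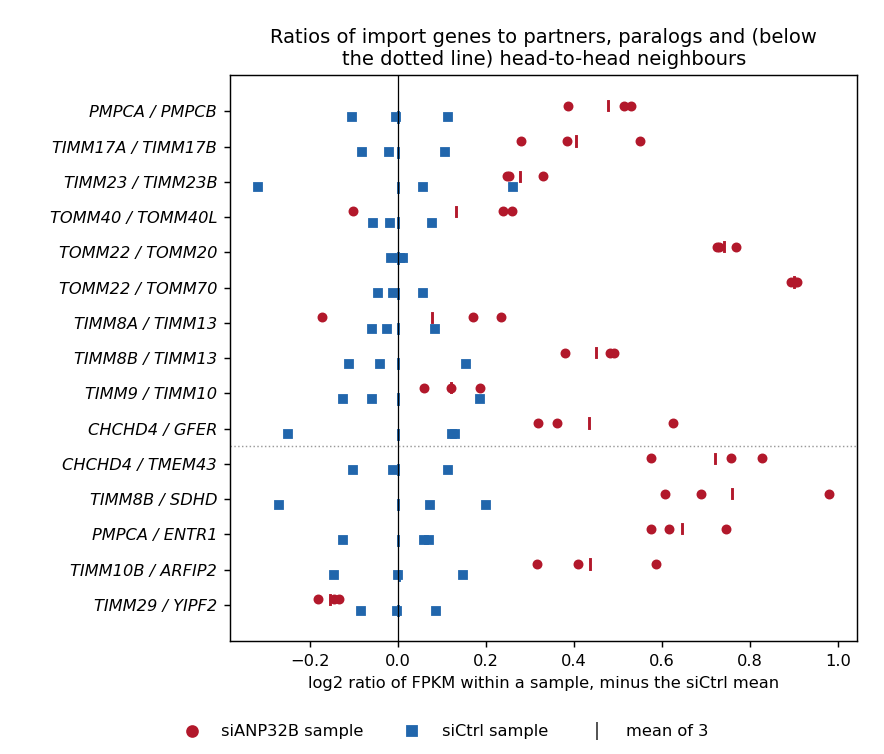
Log2 ratio of FPKM of 2 genes within each sample, minus its siCtrl mean, for 10 pairs of partners or paralogs and, below the dotted line, 5 import genes over their head-to-head neighbours; circles are siANP32B samples, squares siCtrl samples, short lines means of 3. TOMM22 to TOMM70 lies farthest from siCtrl, with little spread, whereas TIMM23 to TIMM23B, TOMM40 to TOMM40L, TIMM8A to TIMM13 and TIMM9 to TIMM10 overlap.

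The 250 bases before the start site were searched for 5 words that are known from promoters of nuclear genes for mitochondria or of other genes, on both strands, in RefSeq sequences of GRCh38.p14 that matched 27 of the 30 genes, 10 of them among the 12 higher genes. CACGTG, the E-box, occurred in 1 of the 27, in TOMM20, against 9.04% of the promoters of all tested genes that matched. CCGGAAG, bound by ETS factors such as GABP, occurred in 9 of the 27 and in 2 of the 10 higher genes, against 16.9%. AAGATGG, part of the YY1 motif, occurred in 1 of the 27 against 3.58%, and CCAAT in 10 against 35.5%, with 5 copies before TOMM40. GCGCATG, one arm of the palindrome of the factor NRF1, occurred in 3 of the 27, all 3 of them higher genes, against 6.84%. These matches are descriptions of letters in a window and not evidence of binding.

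The 3 windows with the NRF1 arm are shown because the word fell only in higher genes among the 27. They read 5′ to 3′ along each gene, 30 bases each, with the word or its reverse complement in capitals. They lie on the reverse strand at chr3:14125004-14125033, chr14:58427640-58427669 and chr7:22822953-22822982, with the word beginning 152, 127 and 122 bases before the start of CHCHD4, TIMM9 and TOMM7. In CHCHD4 the word and its reverse complement overlap and form the whole palindrome.
CHCHD4: ccagtgtttctGCGCATGCGCgcggcgaga
TIMM9: gacacaacacgCATGCGCgccaagaaactc
TOMM7: tcgcaaccacgCATGCGCctactactgccg

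The start regions of TIMM23 and TIMM23B are shown side by side because TIMM23 was called higher and its near-copy was not called. A difference between these genes was not shown, as their log2 ratio overlapped between siANP32B and siCtrl (p = 0.3, exact two-sided permutation test). Whether the ETS word affects the level of either gene was not tested. The 30-base windows, on the forward strand at chr10:45972430-45972459 and chr10:49942000-49942029, differ at 2 positions. Capitals mark CTTCCGG, the reverse complement of the ETS word, which occurs once in the TIMM23 window and in 2 adjoining copies in that of TIMM23B.
TIMM23: ggcgcttccagCTTCCGGggcgcacattgc
TIMM23B: ggcgCTTCCGGCTTCCGGggcgcacactgc

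Of 24 tested genes for HSP70, its helpers, further peptidases, the outer membrane insertases and inner membrane factors, 6 were higher (25%, against 14.6% of all tested genes) and 8 lower (33.3%, against 24.6%), with a median log2 fold change of 0.06. HSPD1, the matrix chaperonin that folds imported proteins, was at 709, 706 and 730 FPKM in siANP32B, against 495, 499 and 501 FPKM in siCtrl (log2 fold change 0.52, adjusted p = 7.01e-06). AFG3L2, a subunit of the matrix AAA protease, had a log2 fold change of 0.38. AIFM1, which anchors CHCHD4 at the inner membrane, fell to 25.3, 25.1 and 21.6 FPKM in siANP32B, against 33.8, 35.0 and 36.8 FPKM in siCtrl (log2 fold change -0.54, adjusted p = 4.49e-04). IMMP1L, of the inner membrane peptidase, had a log2 fold change of -0.59.

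Genes of the import motor outside the named set, described after their values were seen, also differed from GRPEL1. GRPEL2, the paralog of GRPEL1, was at 23.5, 23.2 and 23.9 FPKM in siANP32B, against 28.4, 28.5 and 29.7 FPKM in siCtrl (log2 fold change -0.28, adjusted p = 0.00317). HSPA9, the mitochondrial HSP70, was at 1223, 1164 and 1181 FPKM in siANP32B, against 1290, 1417 and 1275 FPKM in siCtrl. Its log2 fold change of -0.16 (adjusted p = 0.0242) was -0.09 and not called with median-of-ratios scaling (adjusted p = 0.239). With upper-quartile scaling it was -0.05 (adjusted p = 0.528). The call of HSPA9 was also lost without a filter (adjusted p = 0.126) and without siANP32B replicate 2 (adjusted p = 0.0759) or replicate 3 (adjusted p = 0.0689). DNAJC19, the motor's J protein, had a log2 fold change of -0.22 (adjusted p = 0.00608), which was -0.12 with upper-quartile scaling (adjusted p = 0.0843). Against siCtrl replicate 1 alone none of GRPEL2, HSPA9 and DNAJC19 was called.

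Among 18 tested substrates of the MIA pathway, 9 were higher (50%, against 14.6% of all tested genes) and 2 lower (11.1%, against 24.6%), with a median log2 fold change of 0.18. COA4, an assembly factor of cytochrome c oxidase, was at 102, 98.2 and 102 FPKM in siANP32B, against 79.2, 72.6 and 73.9 FPKM in siCtrl (adjusted p = 1.61e-04). NDUFS5 and NDUFA8 of complex I and COX6B1 of cytochrome c oxidase had log2 fold changes of 0.30, 0.36 and 0.20. Against siCtrl replicate 1 alone, fewer substrates and fewer of all tested genes were called. The log2 fold changes were then 0.343 for COA4, 0.413 for NDUFS5, 0.364 for NDUFA8 and 0.195 for COX6B1. Of 76 tested mitochondrial ribosomal protein genes 18 were higher (23.7%) and 10 lower (13.2%), and of 38 mitochondrial carrier genes 10 were higher (26.3%) and 8 lower (21.1%), beside the same 14.6% and 24.6% of all tested genes. Whether the import genes differed from these families was not tested.

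**Figure D4:**
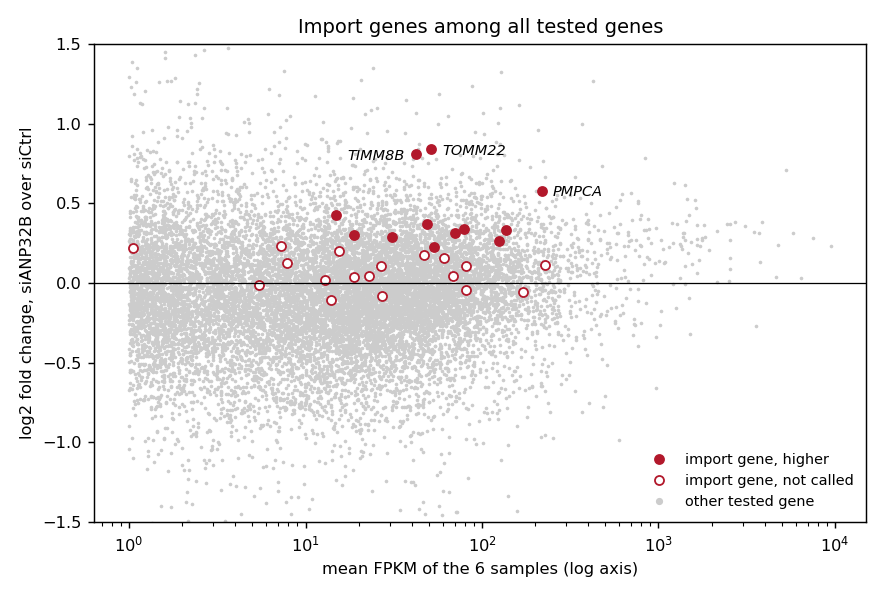
Log2 fold change (siANP32B over siCtrl) against the mean FPKM of the 6 samples (log axis) for all 13945 tested genes in grey, with the 12 higher import genes as filled and the 18 others as open circles; 43 genes lie beyond the limits of 1.5 in either direction. The import genes lie mostly above 0 (25 of 30), among levels where all tested genes have a median of -0.06.

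All 12 genes were called whichever sample was left out. In the import genes other than TOMM20L, siCtrl replicate 1 was 0.843 to 1.13 times the mean of siCtrl replicates 2 and 3. Against siCtrl replicate 1 alone, the median log2 fold change of the 30 import genes was 0.257, beside -0.078 over all tested genes. The share of higher genes among all calls depended on the scaling, at 37.1% as deposited and 51.1% with median-of-ratios scaling. With median-of-ratios scaling 17 of the 30 import genes were higher and 0 lower, against 2689 and 2577 of all 13945 tested genes.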

How the data were processed

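The authors deposited 1 table per sample with FPKM for 61204 rows. The unit is not named and was read from the values: for all 17961 genes above 0 in every sample, the values of a gene were whole numbers of fragments, within 0.002, once a gene length was chosen. Recovered fragments are the smallest the values allow. Bowtie2, RSEM, DESeq2 and GRCh38 are listed in the submitters' processing notes; the versions, annotation and strand setting were not given in the sources used here, so overlapping and antisense genes may share reads. Depth limits the low genes most.

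After a filter at a mean of 1 FPKM, which left 13945 genes, log2(FPKM + 1) was compared between siANP32B and siCtrl by limma 3.58.1 (trended variance) in R 4.3.3, without a block, with Benjamini-Hochberg adjustment over all genes and a threshold of 0.05. Fold changes on this scale understate those of low genes. Tables, exact permutation tests and figures used Python 3.11.15, scipy 1.17.1 and matplotlib 3.10.9. Positions and overlaps came from GENCODE 29 on GRCh38. Its exon lengths gave whole fragments in only 3174 of the 17961 genes, so the overlap shares may differ in the gene models behind the FPKM. The genes, lists and ratios were chosen with earlier results of these data known. All import genes are named, with the value of every sample for called ones, and up to 4 called genes with the smallest p from each further list. Alternatives were a pseudocount of 0.1, no filter, 3 other scalings, each sample left out, a replicate block and siCtrl replicate 1 as the only control. Limma-voom on the recovered fragments was added after the values were seen.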

Additional observations from a re-analysis of the deposited data

How the results depend on the processing

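Over the 14 alternatives, 10 of the 12 higher import genes were called each time, and TIMM9 and TOMM40 were lost only against siCtrl replicate 1 alone, a fit that takes its spread from siANP32B and assumes that the control varies as much. No import gene was called lower in any alternative. Leaving out 1 sample gave 12 to 15 higher import genes, and upper-quartile scaling gave 19. Among all tested genes, 3084 were higher and 2216 lower with upper-quartile scaling, and 1209 were higher and 1899 lower against siCtrl replicate 1 alone.

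Of the other genes of import, 3 were higher without a filter, 5 lower with median-of-ratios scaling, 10 higher and 3 lower with upper-quartile scaling, and 3 higher and 2 lower against siCtrl replicate 1 alone; leaving out 1 sample gave 5 to 8 lower, with 5 without siCtrl replicate 2 or siANP32B replicate 2. Of the MIA substrates, 0 were lower with median-of-ratios or upper-quartile scaling, and 3 were higher and 0 lower against siCtrl replicate 1 alone; leaving out 1 sample gave 0 to 2 lower, with 0 without siCtrl replicate 2. Among all tested genes, 2689 were higher and 2577 lower with median-of-ratios scaling, and 1577 higher and 2657 lower without a filter. Leaving out 1 sample gave 1667 to 1755 higher and 2755 to 3052 lower among all tested genes. The cause was not tested.

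With the replicate number as a block, 12 import genes were again higher, and 2006 genes were higher and 3310 lower in all. Samples of the same number correlated at -0.006 to 0.021 in their deviations from the group means, so no pairing by number was visible. Whether samples of the same number were handled together is not stated.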
